A study of Bos taurus with 15 samples.

Results

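Endometrium of Sub-fertile beef heifers was compared with that of High-fertile heifers on day 14 of pregnancy. The comparison took the 10 libraries that the labels place in these classes, 5 in each, out of 15 in the study, and 19962 of 32671 gene entries had enough reads to be tested. Each library came from 1 heifer (Bos taurus), so the spread within a class is a spread between animals. Heifers of both classes were given the same regime, per the labels' protocols: prostaglandin F and GnRH, a vaginal progesterone insert with injected estradiol and progesterone, removal of the insert with a further prostaglandin dose, and GnRH with estradiol benzoate for those not seen in estrus. An embryo produced in vivo was placed on day 7 in the horn on the side of the corpus luteum, and the biopsy was taken with forceps from that horn after a flush. The sources used here do not say how fertility class was assigned or whether the flush held a conceptus. The remaining 5 heifers, labelled Infertile, entered the statistical model and are not described.

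Endometrium is the lining of the uterus, made of a surface epithelium, glands that secrete into the lumen, a collagen-rich stroma, vessels and resident leukocytes. At this stage progesterone from the corpus luteum has prepared the glands, and the ruminant conceptus, not yet attached, lives on their secretions while it elongates and begins to release interferon tau. B lineage cells in the uterine wall make the immunoglobulins of uterine fluid, and macrophages, complement and T cells form the rest of its resident immune system.

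Levels are given as CPM, counts scaled to library size with TMM factors. When 5 values stand in a row they are always replicates 1 to 5 of a class, numbered here in sample order. Differences are log2 fold changes, Sub-fertile minus High-fertile, with standard errors, from edgeR's quasi-likelihood test. The libraries held 40542008 to 56164970 counts in the High-fertile and 38017136 to 62858724 in the Sub-fertile class. Summed markers of epithelium (482 to 1198 CPM), stroma (4463 to 10888 CPM) and endothelium (255 to 716 CPM) were present in all 10 libraries. Trophoblast markers stood at 0.396 to 1.23 CPM in sum, with TKDP1 and PAG11 at 0 in all 10. The summed smooth muscle markers overlapped between classes (318 to 5873 CPM in the High-fertile and 209 to 3249 CPM in the Sub-fertile libraries). Clustering by 372 pseudogene and ribosomal RNA entries split the libraries into sets, called A, B and C here. Set A held High-fertile replicates 2 to 5 and Sub-fertile replicates 3 and 4, set B held Sub-fertile replicates 1, 2 and 5, and set C held High-fertile replicate 1. The labels name no batch. Class and set are partly confounded, so values with the set as a covariate or within set A (4 High-fertile and 2 Sub-fertile heifers) stand beside many results, though not all.

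Immunoglobulin chain entries had lower levels in the Sub-fertile class (median log2 fold change -3.70 over 9 entries), and most B cell, macrophage and complement genes were lower by smaller amounts. AZIN1, which sustains polyamine synthesis, and MCCC2, of leucine breakdown, were higher in all 5 Sub-fertile heifers than in any High-fertile heifer. In many genes Sub-fertile replicates 1, 2 and 5 stood apart from replicates 3 and 4. No gene passed an adjusted p of 0.05 (0 of 19962, or 0% called; smallest edgeR adjusted p = 0.121). At an unadjusted p under 0.05 there were 2738 genes (13.7% of those tested), 1313 higher (6.58%) and 1425 lower (7.14%) in Sub-fertile heifers. In 1012 genes (5.07%) the 5 heifers of one class all lay beyond the 5 of the other, 451 with Sub-fertile higher (2.26%) and 561 with Sub-fertile lower (2.81%). Both criteria were met by 681 genes. Of these, 131 (51 higher, 80 lower) also had an unadjusted p under 0.05 with the set as a covariate, where 2.51% of all genes did. The criteria rest on the same libraries, so genes that meet some are favoured to meet the rest, and they are not independent support. The smallest edgeR adjusted p with that covariate was 0.506. DESeq2 passed 18 genes at an adjusted p of 0.05, and 12 of them had classes that did not overlap. The 8 with a symbol were CORO1A, DEAF1, DOC2A, IGJ, IGLL1-2, POU2AF1, PPM1N and TNFAIP8L2, all at lower values in Sub-fertile heifers. Of the 18, 14 were lower and 4, all entries without a gene symbol (LOC100295881, LOC101906812, LOC523126 and LOC789637), were higher. Because no gene passed in the edgeR test, the genes below are described as higher or lower, with their spread. Those with an unadjusted p under 0.05 had edgeR adjusted p from 0.121 to 0.360.

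Single heifers moved these counts by a large factor, as the plot of genes with 1 library left out shows. Without Sub-fertile replicate 5 the number at an unadjusted p under 0.05 went from 2738 to 1120, of which 1038 were among the original genes. It went to 1503 without Sub-fertile replicate 1 and to 1419 without Sub-fertile replicate 2. Leaving out a Sub-fertile heifer of set A did the reverse: 3607 genes without replicate 3 and 4678 without replicate 4. Without any 1 High-fertile heifer 1628 to 2378 genes were left. Without High-fertile replicate 1 edgeR passed 3 genes, all immunoglobulin entries (IGLL1-2, LOC100300806 and LOC100847119), and without High-fertile replicate 3 it passed 1 (LOC101904517).

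**Figure D1:**
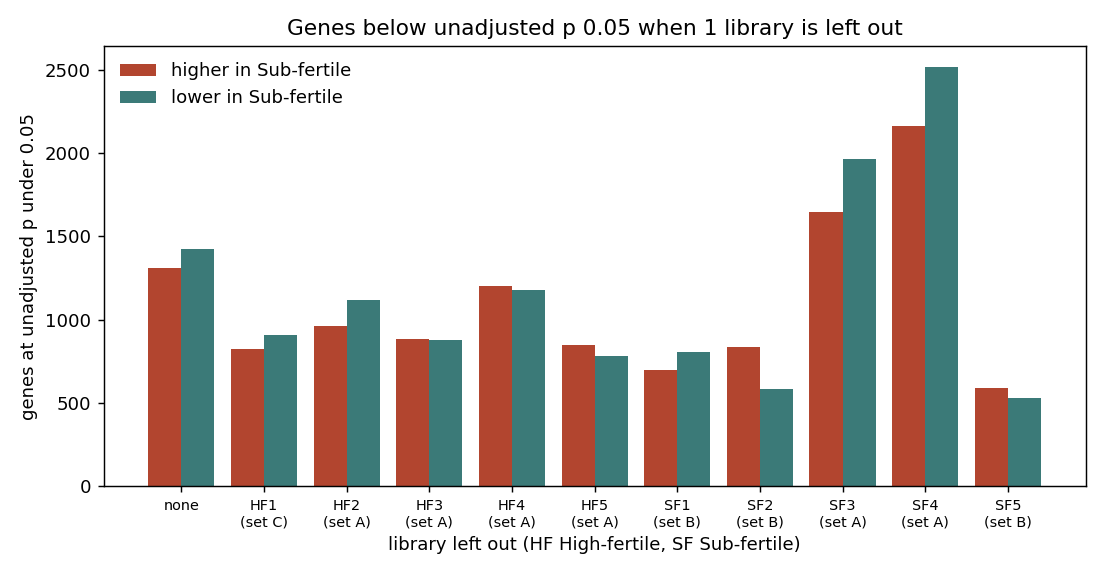
Number of genes at an unadjusted p under 0.05 in edgeR's quasi-likelihood test (y axis) with all libraries and with each of the 10 libraries left out in turn (x axis), split into genes higher and lower in Sub-fertile heifers. Counts dropped to 591 higher and 529 lower without Sub-fertile replicate 5 and climbed to 2161 and 2517 without Sub-fertile replicate 4.

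The Sub-fertile class was itself divided. Replicates 1, 2 and 5 all lay above replicates 3 and 4 in 25.1% of all genes tested, but in 61.6% of the 1313 higher genes and 1.54% of the 1425 lower ones. They all lay below in 28.5% of all genes, 1.22% of the higher and 69.3% of the lower genes. Gene length recovered from the table had a median of 3632 bp for the higher genes, 2434 bp for the lower and 2647 bp for all genes with a length. The part of library set, length or depth in any single difference was not tested beyond the covariate and set A values given. Among 16572 genes at 1 CPM or more, the SD of log2 CPM between heifers had a median of 0.334 in the Sub-fertile and 0.221 in the High-fertile class. The Sub-fertile SD was the larger in 69.7% of these genes, and in 67.7% of those genes replicates 1, 2 and 5 all lay on one side of replicates 3 and 4.

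Of the gene groups described, immunoglobulin transcripts had the widest gap between the classes. The table holds 11 entries described as immunoglobulin chains, or named IGLL1-2, and 9 could be tested. All 9 were lower in Sub-fertile heifers at an unadjusted p under 0.05 (7.14% of all genes), and in 5 the classes did not overlap (2.81% of all genes). These entries were chosen after their values were seen, and their near-identical copies may share reads, so their split between entries is uncertain. In bulk tissue, fewer cells of a type and less RNA per cell cannot be told apart.

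LOC524810, described as IgM, the first antibody class a B cell makes, was at 18.7, 63.99, 279.8, 283 and 419 CPM in the High-fertile and 4.96, 3.52, 2.96, 2.901 and 7.74 CPM in the Sub-fertile libraries. Every High-fertile heifer was above every Sub-fertile one, and within the High-fertile class replicates 1 and 2 were well below replicates 3 to 5. Its log2 fold change was -5.59 ± 1.02, and -6.49 within set A. LOC100847119, a lambda light chain constant region by its description, was at 28.4, 96.03, 26.3, 164 and 38.6 CPM in the High-fertile and 1.98, 0.857, 0.273, 0.918 and 1.02 CPM in the Sub-fertile libraries. The classes were widely separated, and High-fertile replicates 2 and 4 were highest (log2 fold change -6.13 ± 0.90; edgeR adjusted p = 0.121). IGLL1-2, whose symbol is that of a lambda-like light chain, was at 45.9, 370.2, 148, 137 and 296 CPM in the High-fertile and 17.03, 19.3, 14.8, 16.7 and 8.95 CPM in the Sub-fertile libraries. The Sub-fertile heifers kept within a narrow band below all High-fertile ones, and the log2 fold change was -3.70 ± 0.62, or -3.48 with the set as a covariate.

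Further entries are described as heavy chains. LOC100300806 was at 3.17, 25.8, 17.2, 23.1 and 21.01 CPM in the High-fertile and 1.67, 1.23, 1.27, 1.23 and 1.21 CPM in the Sub-fertile libraries, with a log2 fold change of -3.77 ± 0.61. LOC104968484, with the same description, was at 0.989, 45.5, 35.2, 79.2 and 47.1 CPM in the High-fertile and 5.98, 5.002, 1.57, 2.46 and 2.004 CPM in the Sub-fertile libraries. High-fertile replicate 1 was the lowest of its class on both and lay below the Sub-fertile range on the second, whose log2 fold change was -3.61 ± 0.88. LOC444875 (-3.42) separated the classes, and LOC100301305 (-4.56), LOC101906766 (-2.76) and IGLL1 (-2.38) overlapped.

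IGJ encodes the joining chain that links IgM and IgA for transport across epithelium, and was at 15.3, 49.6, 128, 215 and 201 CPM in the High-fertile and 16.6, 13.4, 7.87, 6.77 and 16.5 CPM in the Sub-fertile libraries. High-fertile replicate 1 lay within the Sub-fertile range while the other 4 High-fertile heifers were above it (log2 fold change -3.32 ± 0.79, and -3.60 without replicate 1). MZB1, an endoplasmic reticulum protein of plasma and marginal zone B cells, ranged over 0.940 to 3.21 CPM in the High-fertile and 0.387 to 1.16 CPM in the Sub-fertile libraries, with a log2 fold change of -1.69 ± 0.48. IRF4, a transcription factor needed for plasma cell differentiation, did not overlap between classes (2.14 to 3.12 CPM in the High-fertile and 0.705 to 1.61 CPM in the Sub-fertile libraries; log2 fold change -1.25 ± 0.41, -0.82 with the set as a covariate). CD27, a receptor of memory B cells and T cells, was also apart, at 1.55 to 2.89 CPM in the High-fertile and 0.852 to 1.53 CPM in the Sub-fertile libraries (-0.85 ± 0.28; -0.96 with the set as a covariate).

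POU2AF1, a coactivator of immunoglobulin gene transcription, was at 2.77, 1.07, 0.572, 0.677 and 0.936 CPM in the High-fertile and 0.209, 0.139, 0.0455, 0.0656 and 0.137 CPM in the Sub-fertile libraries. All 5 Sub-fertile heifers were below all High-fertile heifers, and the log2 fold change of -3.33 ± 0.62 was -2.77 without High-fertile replicate 1 and -3.80 within set A. Its unadjusted edgeR p with the set as a covariate, 2.54e-05, was the smallest among the 131 genes that met all 3 criteria.

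For the surface genes of B cells, High-fertile replicate 1 was the highest library of its class. MS4A1, the B cell antigen CD20, was at 20.9, 0.536, 0.643, 0.517 and 0.590 CPM in the High-fertile and 0.444, 0.463, 0.341, 0.393 and 0.342 CPM in the Sub-fertile libraries. High-fertile replicate 1 stood far above every other library, and without it the log2 fold change went from -3.54 ± 1.08 to -0.53. CD79A, a signalling chain of the B cell receptor, was at 7.07, 0.436, 0.858, 0.716 and 0.610 CPM in the High-fertile and 0.209, 0.232, 0.341, 0.0983 and 0.137 CPM in the Sub-fertile libraries, where the classes did not overlap but replicate 1 again set the size (-3.24 ± 0.76, or -1.69 without it). SPIB, a transcription factor of B cells, went from -3.31 to -0.60, CD79B from -3.90 to -1.56 and CCR7, a homing receptor of lymph nodes, from -1.51 to -0.59 when replicate 1 was left out. VPREB1, part of the surrogate light chain, had its highest level in High-fertile replicate 4 instead (1.08 to 4.696 CPM in the High-fertile and 0.228 to 0.865 CPM in the Sub-fertile libraries; -1.90 ± 0.53). In the list of B and plasma cell genes 19 of 20 were lower, 14 at an unadjusted p under 0.05 (70% beside 7.14% of all genes), with a median log2 fold change of -1.94 beside 0.01 for all genes tested. That median was -0.74 without High-fertile replicate 1, -1.33 with the set as a covariate and -0.98 within set A.

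**Figure D2:**
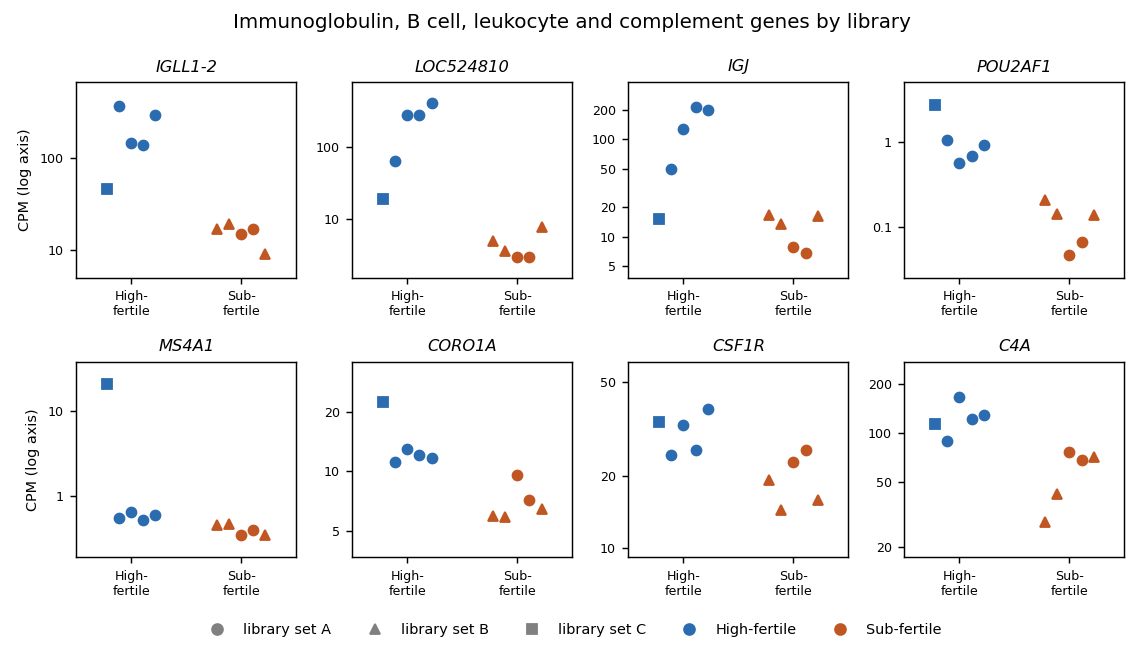
Level of 8 genes (y axis, CPM on a log axis) in each of the 10 libraries by class (x axis), with 1 point per heifer, replicates 1 to 5 from left to right, and shape showing the library set. IGLL1-2, LOC524810, POU2AF1, MS4A1, CORO1A and C4A have no overlap between classes, while MS4A1 differs mainly through High-fertile replicate 1 at 20.9 CPM.

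CORO1A, an actin regulator of blood cells, was at 22.2, 11.2, 13.01, 12.1 and 11.7 CPM in the High-fertile and 5.98, 5.91, 9.63, 7.18 and 6.42 CPM in the Sub-fertile libraries. The classes did not overlap, High-fertile replicate 1 was the highest, and the log2 fold change of -0.998 ± 0.23 was -0.77 without it and -0.53 within set A. TNFAIP8L2, a brake on T cell and Toll-like receptor signalling, was at 2.37, 1.88, 1.97, 1.75 and 1.85 CPM in the High-fertile and 0.783, 1.07, 1.09, 1.05 and 1.02 CPM in the Sub-fertile libraries. The 5 High-fertile values lay above the 5 Sub-fertile values with a clear gap (-0.97 ± 0.23; -0.73 with the set as a covariate). LAPTM5, a lysosomal protein of leukocytes, was at 74.96, 57.6, 64.00, 62.4 and 74.9 CPM in the High-fertile and 49.2, 48.6, 49.7, 44.7 and 54.4 CPM in the Sub-fertile libraries, with no overlap at a log2 fold change of -0.44 ± 0.15 that was -0.47 with the set as a covariate and -0.47 within set A. CD5, a T cell inhibitory receptor, did not overlap either (1.95 to 2.84 CPM in the High-fertile and 1.21 to 1.502 CPM in the Sub-fertile libraries; -0.75 ± 0.32), whereas CD3E, a chain of the T cell receptor complex, overlapped (6.24 to 9.63 CPM in the High-fertile and 4.33 to 8.51 CPM in the Sub-fertile libraries; -0.39 ± 0.23). Of 24 T and NK cell genes 18 were lower, 5 at an unadjusted p under 0.05 (20.8% beside 7.14% of all genes), with a median of -0.20.

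Macrophage genes were lower as a group, together with the ligands of their growth factor receptor. CSF1R, the receptor through which macrophages are maintained, was at 33.9, 24.5, 32.9, 25.7 and 38.4 CPM in the High-fertile and 19.2, 14.4, 22.9, 25.8 and 15.9 CPM in the Sub-fertile libraries. Sub-fertile replicate 4 reached into the High-fertile range and replicate 3 came close to it, and the log2 fold change of -0.66 ± 0.23 was -0.33 within set A. IL34, one ligand of that receptor, was at 8.88, 6.88, 9.09, 7.26 and 11.04 CPM in the High-fertile and 3.92, 3.77, 4.28, 4.82 and 3.78 CPM in the Sub-fertile libraries, with every Sub-fertile heifer below every High-fertile one (-1.07 ± 0.30, -0.53 with the set as a covariate and -0.92 within set A). CSF1, the other ligand, was at 36.9, 34.1, 38.9, 33.2 and 51.3 CPM in the High-fertile and 19.2, 17.5, 26.2, 41.2 and 19.8 CPM in the Sub-fertile libraries, where Sub-fertile replicate 4 lay among the High-fertile heifers (-0.65 ± 0.24, and -0.91 without that heifer). The CSF1 value was -0.28 with the set as a covariate and -0.23 within set A. All 18 tested genes of the macrophage and dendritic cell list were lower, 7 at an unadjusted p under 0.05 (38.9% beside 7.14% of all genes), with a median of -0.47, or -0.46 within set A. CD68, a lysosomal glycoprotein of macrophages (-0.64), and VSIG4, a complement receptor of resident macrophages (-0.87), separated the classes, while C1QB, a subunit of C1q made by macrophages (-0.81), did not. With the set as a covariate CD68 was -0.38, VSIG4 -0.76 and C1QB -0.46. CD74, the invariant chain of MHC class II, was at 461 to 692 CPM in the High-fertile and 289 to 499 CPM in the Sub-fertile libraries (-0.55 ± 0.18; -0.20 within set A).

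Cytokine receptors and inhibitors differed by small amounts. IL18BP, a secreted inhibitor of interleukin 18, was at 22.4 to 26.4 CPM in the High-fertile and 15.8 to 20.9 CPM in the Sub-fertile libraries, without overlap (-0.44 ± 0.15, -0.26 with the set as a covariate and -0.49 within set A). IL21R, which supports B cell differentiation, was likewise apart at about 1 CPM (-0.79 ± 0.32, -0.47 with the set as a covariate and -0.88 within set A). Of 57 interleukin and receptor genes 40 were lower and 7 had an unadjusted p under 0.05 in that direction (12.3% beside 7.14% of all genes), against 1 in the other, with a median of -0.31. Chemokines and their receptors had 38 of 49 lower, but the 3 lower at an unadjusted p under 0.05 (6.12%) were a share near the 7.14% of all genes.

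Complement genes were lower in 18 of 23 cases, 8 of them at an unadjusted p under 0.05 (34.8% beside 7.14% of all genes) and none in the other direction. Their median was -0.63, -0.39 with the set as a covariate and -0.41 within set A. C4A, of the classical pathway, was at 114, 90.2, 167, 123 and 129.8 CPM in the High-fertile and 28.5, 42.4, 76.6, 68.97 and 71.8 CPM in the Sub-fertile libraries. Its classes did not overlap, Sub-fertile replicates 1 and 2 were lowest, and the log2 fold change was -1.11 ± 0.41, also -1.11 with the set as a covariate. C3, the central component, was at 106, 77.9, 94.1, 85.4 and 157 CPM in the High-fertile and 86.1, 48.5, 72.5, 58.6 and 42.1 CPM in the Sub-fertile libraries, where only Sub-fertile replicate 1 reached into the High-fertile range (-0.76 ± 0.28). CFD, the protease of the alternative pathway, ranged over 14.5 to 21.7 CPM in the High-fertile and 7.15 to 15.2 CPM in the Sub-fertile libraries and overlapped through Sub-fertile replicate 4 (-0.78 ± 0.25, and -0.99 without it). The CFD value was -0.39 with the set as a covariate and -0.41 within set A.

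Single genes of polyamine, leucine and lipid metabolism had higher levels in Sub-fertile heifers. AZIN1, the antizyme inhibitor that protects ornithine decarboxylase from degradation, was at 191, 211, 197, 160.0 and 171 CPM in the High-fertile and 244, 249.9, 261, 239 and 254 CPM in the Sub-fertile libraries. The Sub-fertile heifers were close together and all above the High-fertile ones, with a log2 fold change of 0.42 ± 0.11, 0.33 with the set as a covariate and 0.42 within set A. ODC1, the ornithine decarboxylase that starts polyamine synthesis, was at 66.7, 64.8, 62.4, 52.9 and 62.98 CPM in the High-fertile and 63.2, 84.2, 90.3, 75.05 and 69.5 CPM in the Sub-fertile libraries, where Sub-fertile replicate 1 lay inside the High-fertile range (0.30 ± 0.12; 0.43 within set A). AZIN2, a paralog of AZIN1, was lower instead, with a log2 fold change of -1.13 ± 0.52. It was at 0.476 to 1.83 CPM in the High-fertile and 0.319 to 0.810 CPM in the Sub-fertile libraries. The 24 polyamine and arginine genes were split 12 to 12. At an unadjusted p under 0.05, 2 were higher (8.33% beside 6.58% of all genes) and 1 lower (4.17% beside 7.14%).

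MCCC2, a subunit of the mitochondrial carboxylase of leucine breakdown, was at 62.99, 67.4, 69.5, 66.3 and 75.8 CPM in the High-fertile and 87.4, 107, 138, 91.7 and 109.9 CPM in the Sub-fertile libraries. Every Sub-fertile heifer exceeded every High-fertile one, replicate 3 by the most, and the log2 fold change of 0.64 ± 0.18 was 0.71 within set A. ASAH2, a ceramidase, was at 2.18, 1.71, 2.64, 1.53 and 1.63 CPM in the High-fertile and 4.100, 4.22, 4.78, 6.51 and 4.42 CPM in the Sub-fertile libraries, again without overlap (1.31 ± 0.54; 1.58 within set A). FADS1, the delta-5 fatty acid desaturase, had High-fertile values of 62.4, 65.04, 64.5, 63.4 and 44.6 CPM and Sub-fertile values of 66.5, 78.7, 124, 67.9 and 67.9 CPM. Its classes were separate by a small margin, with Sub-fertile replicate 3 high and High-fertile replicate 5 low, and the log2 fold change of 0.43 ± 0.20 was 0.23 without that Sub-fertile heifer.

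Individual transporters differed in both directions. SLC2A12, a facilitative glucose transporter, was at 10.2, 13.1, 11.95, 10.9 and 10.5 CPM in the High-fertile and 14.5, 15.7, 20.9, 16.03 and 22.1 CPM in the Sub-fertile libraries. The classes did not overlap and the log2 fold change of 0.66 ± 0.22 was the same within set A (0.66) and 0.41 with the set as a covariate. SLC9A7, a sodium and proton exchanger of the Golgi, was at 23.1, 29.4, 28.4, 37.3 and 25.6 CPM in the High-fertile and 50.8, 48.01, 34.4, 38.1 and 42.5 CPM in the Sub-fertile libraries, with Sub-fertile replicate 3 inside the High-fertile range and a log2 fold change of 0.57 ± 0.15 that was 0.25 within set A. SLC38A3, a glutamine transporter, was at 4.11, 3.21, 8.51, 5.15 and 10.2 CPM in the High-fertile and 2.53, 2.94, 2.12, 2.38 and 2.19 CPM in the Sub-fertile libraries. It was lower in all 5 Sub-fertile heifers, which differed little while the High-fertile ones spread widely (-1.36 ± 0.40; -1.60 within set A). SLC37A2, a sugar phosphate transporter abundant in macrophages, was lower without overlap (3.71 to 6.11 CPM in the High-fertile and 2.596 to 3.33 CPM in the Sub-fertile libraries; -0.83 ± 0.22; -0.80 with the set as a covariate). Among all 281 solute carrier genes 8 were higher (2.85% beside 6.58% of all genes) and 22 lower (7.83% beside 7.14%) at an unadjusted p under 0.05. Their median was -0.03.

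Steroid enzymes included differences in both directions. SRD5A2, a steroid 5-alpha-reductase, had 45 reads in all 5 Sub-fertile libraries together and 4 in the High-fertile ones. Its level was 0.0495, 0, 0, 0.0398 and 0 CPM in the High-fertile and 0.261, 0.255, 0.273, 0.0328 and 0.228 CPM in the Sub-fertile libraries, so 4 of 5 Sub-fertile heifers were above every High-fertile heifer and replicate 4 was not (3.44 ± 0.85). A count of 0 allows up to 3 reads, or 0.0477 to 0.0789 CPM by library, for counting error alone. HSD17B8, a 17-beta-hydroxysteroid dehydrogenase that also serves mitochondrial fatty acid synthesis, was at 40.3, 43.6, 40.6, 39.8 and 44.9 CPM in the High-fertile and 33.1, 31.2, 24.5, 38.6 and 30.6 CPM in the Sub-fertile libraries, without overlap (-0.41 ± 0.14; -0.43 within set A). HSD17B13, a lipid droplet protein of the same family, was at 34.3, 26.7, 11.6, 22.2 and 25.5 CPM in the High-fertile and 152, 20.3, 61.9, 61.5 and 78.6 CPM in the Sub-fertile libraries, high in all Sub-fertile heifers but replicate 2 (1.64 ± 0.74; 0.74 with the set as a covariate). Of 19 tested steroid metabolism genes 3 were higher (15.8% beside 6.58% of all genes) and 4 lower (21.1% beside 7.14%) at an unadjusted p under 0.05.

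PGR and ESR1 spread widely among the Sub-fertile heifers. PGR, the progesterone receptor, was at 9.05, 9.29, 10.1, 15.1 and 6.92 CPM in the High-fertile and 3.19, 3.33, 14.04, 6.72 and 2.48 CPM in the Sub-fertile libraries. Sub-fertile replicates 1, 2 and 5 were lowest, replicate 4 was just under the lowest High-fertile heifer and replicate 3 was near the top. The log2 fold change of -0.76 ± 0.74 turned to 0.50 with the set as a covariate and was -0.01 within set A. ESR1, the estrogen receptor alpha, ranked the 5 Sub-fertile heifers in the same order but with replicate 4 inside the High-fertile range, at 13.5, 21.1, 20.9, 22.9 and 13.1 CPM in High-fertile and 7.89, 8.01, 24.3, 21.6 and 7.15 CPM in Sub-fertile heifers (-0.41 ± 0.46; 0.39 with the set as a covariate and 0.22 within set A). PTCH1, a hedgehog receptor and target, was at 119 to 185 CPM in the High-fertile and 154 to 226 CPM in the Sub-fertile libraries (0.39 ± 0.14; 0.16 within set A). At an unadjusted p under 0.05, 1 of 26 steroid receptors and partners was higher (3.85% beside 6.58% of all genes) and 0 were lower. The 26 genes had a median of -0.00. Their mean log2 CPM was 5.99 to 6.06 in the High-fertile and 5.77 to 5.92 in the Sub-fertile libraries, without overlap. This is not particular to the list and was not tested. The means of the B and plasma cell, complement and collagen lists also lay lower without overlap, and that of steroid metabolism lay higher.

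Secreted endometrial products were lower on balance, 18 of 27, with a median of -0.35. At an unadjusted p under 0.05, 4 were lower (14.8% beside 7.14% of all genes) and 1 was higher (3.7% beside 6.58%). CST3, a cystatin that inhibits cathepsins, was at 139, 98.4, 110.1, 140.2 and 145 CPM in the High-fertile and 94.3, 80.1, 75.3, 102 and 79.1 CPM in the Sub-fertile libraries, with Sub-fertile replicate 4 above the lowest High-fertile heifer (-0.56 ± 0.18; -0.49 within set A). MUC1, a mucin of the apical surface, was at 64.1, 123, 72.7, 109 and 149 CPM in the High-fertile and 68.3, 57.4, 75.5, 67.8 and 48.4 CPM in the Sub-fertile libraries. High-fertile replicates 2, 4 and 5 were above all Sub-fertile heifers and replicates 1 and 3 were not (-0.71 ± 0.27). The luminal and glandular epithelium list was split 10 to 10 with a median of -0.01.

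Genes of motile cilia were high in some Sub-fertile heifers and not in others. SPAG17, of the central pair of the axoneme, was at 8.804, 9.54, 8.58, 4.099 and 6.88 CPM in the High-fertile and 23.7, 7.87, 27.3, 4.62 and 15.6 CPM in the Sub-fertile libraries. Sub-fertile replicates 1, 3 and 5 were above every High-fertile heifer, while replicates 2 and 4 were within their range, so the split did not follow the library sets (1.06 ± 0.45; 1.11 within set A). DNAH5, an outer arm dynein, was likewise highest in Sub-fertile replicates 1, 3 and 5, all above every High-fertile heifer (66.1, 74.2, 79.2, 49.2 and 54.7 CPM against 169.9, 70.2, 178, 48.3 and 128 CPM; 0.88 ± 0.37), and so was CCDC39, which sets the spacing of axonemal arms (0.96). In the ciliated epithelium list 17 of 19 were higher, where 51% of all genes were, 3 of them at an unadjusted p under 0.05 (15.8% beside 6.58% of all genes), and the median of 0.68 ranged from 0.30 to 0.89 with 1 library left out.

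Several poorly described entries with wide gaps between heifers are given next, chosen after their values were seen. LOC101906812, without a described product, was at 0.0495, 0.0794, 0, 0.0995 and 0.163 CPM in the High-fertile and 6.84, 0.232, 8.87, 0.475 and 8.99 CPM in the Sub-fertile libraries. Replicates 1, 3 and 5 had levels that no other heifer approached, and the 2 remaining Sub-fertile heifers were still above the High-fertile ones (5.98 ± 1.30). LOC523126, described as similar to multidrug resistance-associated protein 4, an exporter of cyclic nucleotides and prostaglandins, was at 0.0495, 0.119, 0.322, 0.0199 and 0.122 CPM in the High-fertile and 2.69, 0.185, 5.57, 0.164 and 2.98 CPM in the Sub-fertile libraries, high in those 3 heifers alone (4.14 ± 1.21). LOC789637, of the same description, was at 0.124, 0.357, 0.0893, 0.0597 and 0.305 CPM in the High-fertile and 1.72, 0.185, 2.64, 1.52 and 2.300 CPM in the Sub-fertile libraries, high in every Sub-fertile heifer but replicate 2 (3.14 ± 0.83). LOC101904517, a further copy, was at 0, 0, 0.679, 0.0199 and 0.0203 CPM in the High-fertile and 2.17, 1.92, 0.887, 2.098 and 1.12 CPM in the Sub-fertile libraries. It had no overlap, and its log2 fold change went from 3.43 ± 1.04 to 6.96 without High-fertile replicate 3, the only High-fertile heifer with more than a trace.

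The table holds 55 entries with this description, and 40 had enough reads to be tested. Of the 40, 37 had higher and 3 lower fitted values (51% of all genes were higher), 11 were higher at an unadjusted p under 0.05 (27.5% beside 6.58% of all genes) and 2 did not overlap, both higher (5% beside 2.26%). Their log2 fold changes ran from -0.87 to 4.14 with a median of 0.99, and 0.81 within set A. Most lay near or under 1 CPM, and reads of such similar copies may be divided among them, so single entries are uncertain and an entry that passed the filter on low counts through the Sub-fertile libraries had to be higher there.

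Most vascular and collagen genes were lower in Sub-fertile heifers, and the medians of both lists shrank with the set as a covariate. ACE, the endothelial enzyme that makes angiotensin II, was at 26.2, 25.3, 39.8, 53.1 and 40.4 CPM in the High-fertile and 16.4, 15.4, 22.9, 20.3 and 20.7 CPM in the Sub-fertile libraries. All Sub-fertile heifers were below all High-fertile ones, High-fertile replicate 4 was highest, and the log2 fold change of -0.95 ± 0.22 was -0.76 with the set as a covariate and -0.89 within set A. NOTCH4, a Notch receptor of endothelium, was at 76.1, 37.5, 52.2, 47.02 and 67.9 CPM in the High-fertile and 30.6, 23.99, 36.4, 35.3 and 31.5 CPM in the Sub-fertile libraries, with a narrow gap between classes (-0.83 ± 0.23; -0.52 within set A). ENG, a coreceptor of bone morphogenetic proteins on endothelium, overlapped through Sub-fertile replicate 4. It was at 73.2 to 154 CPM in the High-fertile and 53.98 to 109.9 CPM in the Sub-fertile libraries (-0.66 ± 0.28, -0.28 with the set as a covariate and -0.47 within set A). The endothelium list had 19 of 20 lower, 3 at an unadjusted p under 0.05 (15% beside 7.14% of all genes). Its median of -0.39 was -0.14 with the set as a covariate and -0.21 within set A.

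COL18A1, a basement membrane collagen whose fragment endostatin restrains vessel growth, was at 649, 638, 753, 694 and 1197 CPM in the High-fertile and 251, 214, 364, 600.5 and 213 CPM in the Sub-fertile libraries. Sub-fertile replicate 4 lay just under the lowest High-fertile heifer and the other 4 far under it, and the log2 fold change of -1.26 ± 0.39 was -0.60 with the set as a covariate. COL6A1, of the microfibrils around cells, was also apart (1959.8, 1609.9, 2087, 1765 and 2222 CPM against 1238, 1051, 1070.1, 1443 and 859.6 CPM; -0.77 ± 0.29; -0.23 with the set as a covariate). COL4A1, of basement membranes, overlapped through Sub-fertile replicate 4 (-0.99 ± 0.41, and -0.18 with the set as a covariate). Within set A COL6A1 was at -0.62 and COL4A1 at -0.52. COL3A1, a fibrillar collagen of the stroma, overlapped widely (-0.19 ± 0.39, -0.04 with the set as a covariate and -0.74 within set A). DCN, the proteoglycan decorin, was highest in Sub-fertile replicate 1 (0.37 ± 0.31, turning to -0.18 with the set as a covariate). Of 42 collagen genes 36 were lower, 6 at an unadjusted p under 0.05 (14.3% beside 7.14% of all genes). Their median of -0.49 was -0.03 with the set as a covariate and -0.53 within set A. Smooth muscle genes were lower in 15 of 15 cases, 0 at an unadjusted p under 0.05, and their summed level differed between heifers of one class by a large factor. The median of -0.93 was -0.10 with the set as a covariate.

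**Figure D3:**
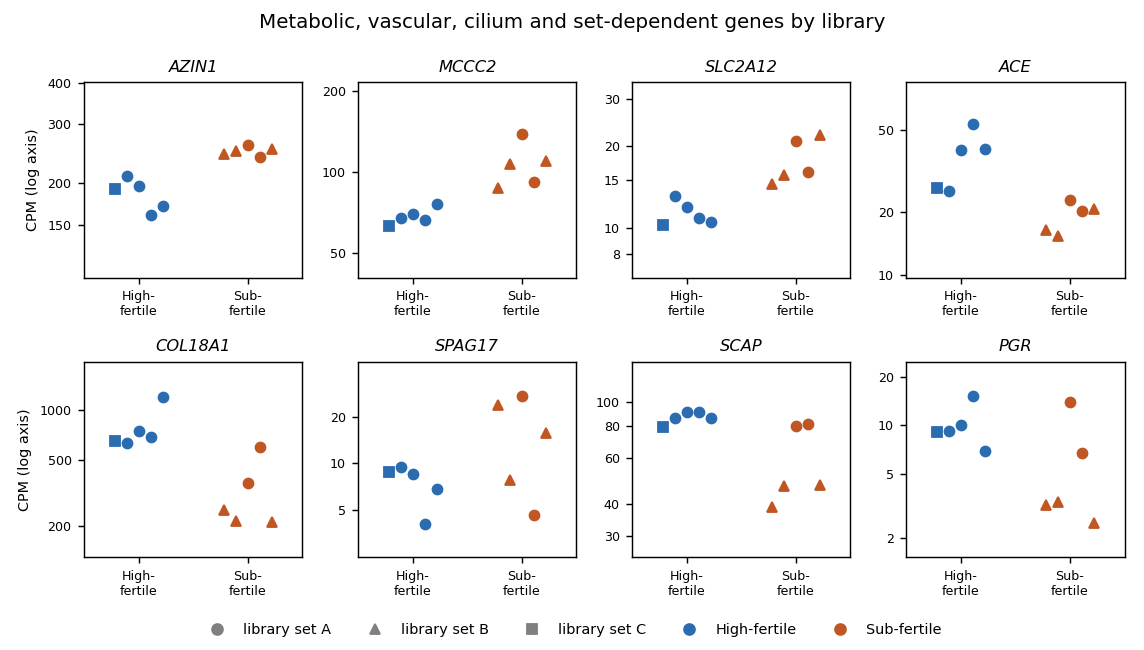
Level of 8 further genes (y axis, CPM on a log axis) in each of the 10 libraries by class (x axis), 1 point per heifer, replicates 1 to 5 from left to right, shape showing the library set. AZIN1, MCCC2, SLC2A12, ACE and COL18A1 have no overlap between classes, SPAG17 is high in Sub-fertile replicates 1, 3 and 5, and SCAP and PGR are low in Sub-fertile replicates 1, 2 and 5.

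Clock genes differed by small amounts. NR1D1, a repressor in the molecular clock, was at 54.3, 52.00, 70.7, 54.1 and 53.5 CPM in the High-fertile and 45.5, 36.99, 40.3, 50.5 and 34.4 CPM in the Sub-fertile libraries, with all Sub-fertile heifers under all High-fertile ones (-0.45 ± 0.16; -0.41 with the set as a covariate). DBP, an output factor of the clock, had no overlap either (105 to 122 CPM in the High-fertile and 67.1 to 104 CPM in the Sub-fertile libraries; -0.37 ± 0.17; -0.16 with the set as a covariate). CLOCK, an activator of the same loop, was higher in Sub-fertile replicates 1, 2 and 5 and close to the High-fertile level in 3 and 4 (0.38 ± 0.14; 0.04 within set A). The sources used here do not give the time of day of each biopsy. Of 19 clock genes 1 was higher (5.26% beside 6.58% of all genes) and 3 were lower (15.8% beside 7.14%) at an unadjusted p under 0.05.

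Stress genes included HSPA1A, an inducible HSP70, at 451, 532, 253, 326 and 347 CPM in the High-fertile and 215, 165, 284, 230.2 and 230.0 CPM in the Sub-fertile libraries (-0.76 ± 0.24). High-fertile replicates 1 and 2 were highest and replicate 3 lay in the Sub-fertile range. HSPA2, a related chaperone, did not overlap (67.8 to 87.4 CPM in the High-fertile and 52.4 to 67.4 CPM in the Sub-fertile libraries; -0.37 ± 0.11). The 22 heat shock genes were split 11 to 11. At an unadjusted p under 0.05, 2 were higher (9.09% beside 6.58% of all genes) and 3 lower (13.6% beside 7.14%).

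Several genes with the smallest p belong to no list. DEAF1, a transcription factor, was at 17.6, 16.1, 16.9, 17.8 and 20.1 CPM in the High-fertile and 9.45, 8.08, 12.8, 10.8 and 8.01 CPM in the Sub-fertile libraries, without overlap (-0.85 ± 0.20; -0.49 with the set as a covariate). DOC2A, a calcium sensor of vesicle release, was lower in all 5 Sub-fertile heifers (0.734 to 1.29 CPM in the High-fertile and 0.392 to 0.541 CPM in the Sub-fertile libraries; -1.14 ± 0.25; -1.03 within set A), as were PPM1N, a phosphatase (-1.17), MCHR1, a receptor of melanin-concentrating hormone (-1.25), STAC2 (-0.91) and STK19 (-0.39). DPY19L4 was at 73.1, 80.2, 78.3, 89.6 and 51.8 CPM in the High-fertile and 129, 126, 132, 93.2 and 151 CPM in the Sub-fertile libraries, with Sub-fertile replicate 4 only just above the High-fertile heifers (0.76 ± 0.20). CCDC90B, a mitochondrial protein, was higher without overlap (18.3 to 22.2 CPM in the High-fertile and 24.98 to 32.5 CPM in the Sub-fertile libraries; 0.54 ± 0.15; 0.28 with the set as a covariate).

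Ubiquitin-specific proteases and zinc finger genes had 29.8% and 22.5% of their members at an unadjusted p under 0.05, beside 13.7% of all genes, and their medians lay near 0 with the set as a covariate. USP37, a ubiquitin-specific protease of the cell cycle, was at 50.7, 51.5, 49.9, 54.4 and 51.9 CPM in the High-fertile and 72.7, 77.3, 61.00, 58.02 and 81.5 CPM in the Sub-fertile libraries. The classes did not overlap, but replicates 3 and 4 were much nearer to the High-fertile heifers than replicates 1, 2 and 5, and the log2 fold change of 0.44 ± 0.15 was 0.12 with the set as a covariate. Of 47 ubiquitin-specific proteases 13 were higher (27.7% beside 6.58% of all genes) and 1, USP21, was lower at an unadjusted p under 0.05 (-0.35). Their median of 0.21 was 0.04 with the set as a covariate and 0.05 within set A. Zinc finger genes had 39 higher (13.5% beside 6.58% of all genes) and 26 lower (9% beside 7.14%) of 289 at an unadjusted p under 0.05, and their median went from 0.14 to 0.00 with the set as a covariate. ZNF182 was an exception in part (0.43 ± 0.13; 0.24 with the set as a covariate).

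SCAP, the escort protein of the sterol-sensing factor SREBP, was at 79.9, 86.01, 91.1, 91.3 and 86.6 CPM in the High-fertile and 38.7, 46.97, 80.5, 82.00 and 47.3 CPM in the Sub-fertile libraries. Sub-fertile replicates 1, 2 and 5 were far below all other heifers, and the log2 fold change of -0.56 ± 0.25 was -0.06 with the set as a covariate. PTGES2, a prostaglandin E synthase, had the same pattern (15.01, 14.5, 13.7, 10.9 and 13.5 CPM against 5.14, 5.42, 13.99, 12.8 and 5.78 CPM), with -0.65 ± 0.32 over all libraries and 0.01 within set A. H3F3C, a histone H3-like entry, had the opposite order, at 2.300, 5.14, 6.11, 5.07 and 6.35 CPM in the High-fertile and 20.3, 24.99, 8.396, 7.26 and 23.6 CPM in the Sub-fertile libraries (1.76 ± 0.57; 0.36 with the set as a covariate). LOC100295881, a ribosomal protein S27-like pseudogene among the entries used for clustering, was at 45.3 to 53.8 CPM in Sub-fertile replicates 1, 2 and 5 and at 0.443 to 1.11 CPM in the other 7 libraries. USP9Y, whose gene is Y-linked, had a level of 0, 0, 0.0179, 0 and 0.0203 CPM in the High-fertile and 0.366, 0.324, 0, 0 and 0.319 CPM in the Sub-fertile libraries, although the animals were heifers. Its X-linked copy USP9X was at 372 to 443 CPM in the High-fertile and 435 to 623 CPM in the Sub-fertile libraries (0.35 ± 0.13), and reads may be shared between near-identical copies.

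Subunits of the proteasome were split 23 to 23. Without overlap, 5 of 46 were higher and 0 lower, where 2.26% and 2.81% of all genes were. PSMA3, among the 5, was at 52.3 to 53.8 CPM in the High-fertile and 56.7 to 71.8 CPM in the Sub-fertile libraries. Its log2 fold change of 0.27 ± 0.10 was 0.10 with the set as a covariate, and PSMC3 was lower (-0.32). Cytosolic ribosomal protein genes were lower in 69 of 84 cases, where 9778 of all 19962 genes were. At an unadjusted p under 0.05, 4 were lower (4.76%, under the 7.14% of all genes) and 1 was higher (1.19% beside 6.58%). The list had a median of -0.22. That median was -0.02 without High-fertile replicate 1, which held the most RPLP1 (1244, 504, 616, 526 and 643 CPM against 461, 445, 382, 565 and 430.4 CPM). Vesicle coat genes differed in both directions, SAR1B at 0.44 and SEC13 at -0.43, and became 0.16 and -0.10 with the set as a covariate.

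**Figure D4:**
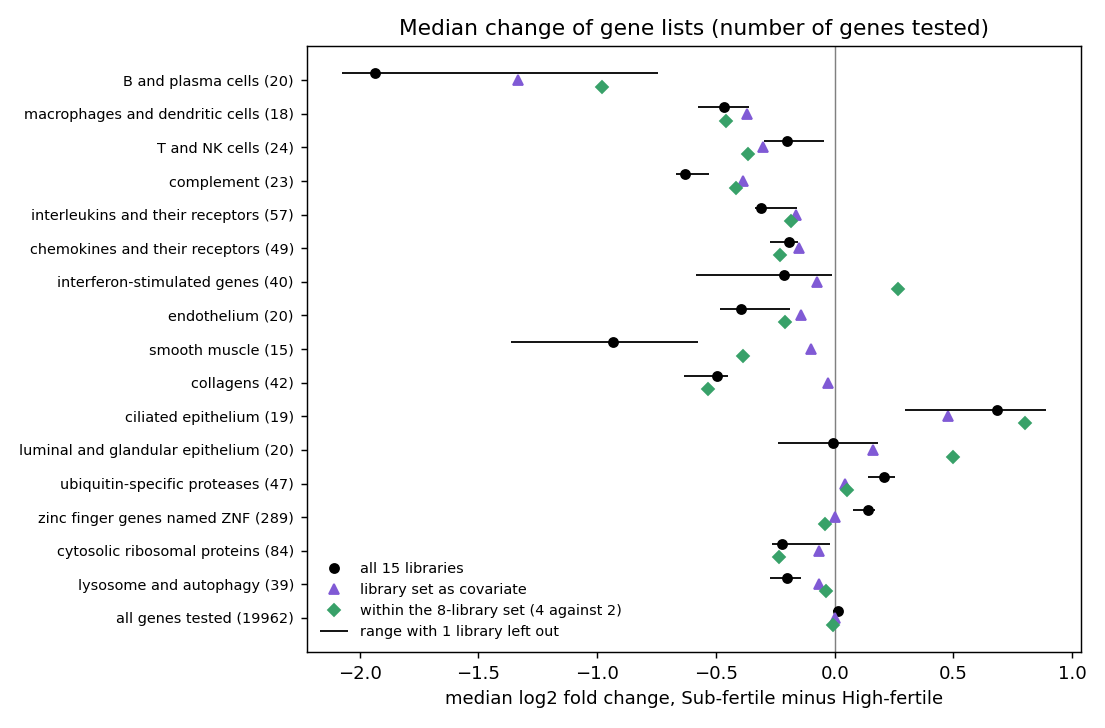
Median log2 fold change, Sub-fertile minus High-fertile (x axis), of 16 gene lists and of all genes tested (y axis, number of genes in parentheses), with all 15 libraries in the model, with the library set as a covariate and within the 8-library set A. Lines give the range of the first value with 1 library left out. B and plasma cell, macrophage and complement medians stay below 0 in all 3. So do those of T and NK cells, interleukins, chemokines, endothelium, smooth muscle, collagens, cytosolic ribosomal proteins and lysosome genes. Cilium genes stay above 0 in all 3, while the protease and zinc finger medians lie near 0 once the set is accounted for. With the set as a covariate, those of collagens (-0.03), cytosolic ribosomal proteins (-0.07), lysosome genes (-0.07) and smooth muscle (-0.10) are near 0 too.

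Interferon-stimulated genes followed single heifers. ISG15, a ubiquitin-like modifier induced by interferon, was at 97.01, 47.8, 4.13, 10.2 and 65.1 CPM in the High-fertile and 4.88, 9.08, 13.5, 93.2 and 7.04 CPM in the Sub-fertile libraries. It was high in High-fertile replicates 1, 2 and 5 and in Sub-fertile replicate 4, and low in the other 6 heifers of the comparison. The log2 fold change was -0.81 ± 0.88, -2.38 without Sub-fertile replicate 4 and 0.74 within set A. Of 40 interferon-stimulated genes 29 were lower, and 1 of these had an unadjusted p under 0.05 (2.5% beside 7.14% of all genes). Their median of -0.21 became 0.27 within set A.

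Some genes varied between heifers by far more than any difference between classes. PRSS2, a trypsinogen, was at 0.321, 0.159, 0.143, 68.6 and 34.2 CPM in the High-fertile and 0.104, 0.0232, 0.887, 0 and 0.0455 CPM in the Sub-fertile libraries. High-fertile replicates 4 and 5 held nearly all of it, and the log2 fold change of -6.62 ± 2.29 rests on them. SYT4, a synaptotagmin of regulated secretion, was at 124, 119.7, 163, 205 and 203 CPM in the High-fertile and 383, 254, 223, 0.262 and 286 CPM in the Sub-fertile libraries, almost missing from Sub-fertile replicate 4 and higher in the other 4 Sub-fertile heifers than in every High-fertile one (0.49 ± 0.84). BOLA-DQA1, an MHC class II alpha chain that differs between cattle haplotypes, was at 0.124, 0.218, 0.143, 0.219 and 0.0203 CPM in the High-fertile and 15.7, 9.796, 0, 0.377 and 0.137 CPM in the Sub-fertile libraries. Sub-fertile replicates 1 and 2 alone had more than 1 CPM, and the log2 fold change of 5.14 ± 1.49 was 0.38 within set A.

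IFITM1, an interferon-induced membrane protein, was at 0.0495, 53.3, 36.9, 26.03 and 56.5 CPM in the High-fertile and 15.9, 20.6, 23.8, 72.2 and 17.96 CPM in the Sub-fertile libraries, close to 0 in High-fertile replicate 1 (-0.20 ± 1.04). RN18S1, an 18S ribosomal RNA entry, was listed at 0 in the same library and at 22.4 to 74.4 CPM in the other 9. CHRDL2, a secreted antagonist of bone morphogenetic proteins, was at 77.2, 70.9, 35.9, 6.11 and 0.0814 CPM in the High-fertile and 0.261, 43.3, 3.48, 24.1 and 10.4 CPM in the Sub-fertile libraries, with the lowest and the highest heifer of each class far apart (-1.22 ± 1.63; 0.12 with the set as a covariate). KRT14, a keratin of basal epithelium, was at 0.890, 0.655, 0.518, 0.239 and 0.570 CPM in the High-fertile and 0.653, 0.857, 3.34, 2.62 and 0.934 CPM in the Sub-fertile libraries. It was highest in Sub-fertile replicates 3 and 4, the heifers of set A (1.55 ± 0.69; 2.57 within set A). TMPRSS4, a membrane serine protease, was high in Sub-fertile replicate 3 alone (0.232 to 1.34 CPM in the High-fertile and 0.444 to 4.98 CPM in the Sub-fertile libraries), and its log2 fold change of 1.30 ± 0.94 was 0.08 without that heifer.

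Remaining genes are given briefly. CDX2, a trophectoderm and gut transcription factor, had 0.0495, 0, 0.0715, 0 and 0 CPM in High-fertile and 0.313, 0.301, 0.0910, 0 and 0.501 CPM in Sub-fertile heifers, with most reads in the 3 heifers of set B (3.16 ± 1.43, turning to -0.23 with the set as a covariate). Respiratory chain genes included NDUFS1, a subunit of complex I, at 77.5 to 88.9 CPM in the High-fertile and 85.1 to 112 CPM in the Sub-fertile libraries (0.29 ± 0.11; 0.12 with the set as a covariate), with 27 of 80 subunits higher and 53 lower. NCOA1 and USP47 were higher without overlap at 0.26 and 0.33, and became 0.04 and 0.12 with the set as a covariate.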

How the data were processed

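The authors deposited whole-number counts per gene entry and FPKM values. FastQC, Subread, featureCounts, edgeR and genome build UMD3.1 are named per the submitters' processing notes, and the sources used here give no roles, versions or settings. Libraries were stranded TruSeq mRNA, per the labels' protocols. The deposited FPKM served only to check library scale (within 0.4%) and to recover gene lengths. The names of 27 entries read as dates and were left. Symbols are the table's own.

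Counts were tested in R 4.3.3 with edgeR 4.0.16: filterByExpr by class, TMM, glmQLFit with robust estimation and glmQLFTest, 1 mean per class over 15 libraries, 12 residual degrees of freedom, two-sided, Benjamini-Hochberg over 19962 genes. CPM are TMM-scaled, and SDs of log2 CPM use a prior count of 2. On simulated data with 19786 genes the test called 117, of which 5 were unchanged, and recovered 29 of 100 changed by 2-fold and 83 of 100 changed by 4-fold. The simulated counts held no library sets and changed only genes above 1 CPM, so these rates may not hold for this comparison. Sets A (8 libraries), B (5) and C (2) came from average-linkage clustering cut at 3. Alternatives were other scalings, filters, tools (DESeq2 1.42.0, limma 3.58.1), 10 libraries, the set as a covariate, set A alone, each library left out and a threshold of 0.10. Named genes follow a rule (20 smallest p, 8 largest in each direction without overlap, 2 per list in 44 lists, 10 by covariate p, 10 most abundant, 5 most variable per class, a fixed set), of which a part is printed; entries with a LOC number are outside it. The genes and lists were chosen with earlier results of these data known. Exact two-sided permutation over 252 assignments gave p = 0.357 for the pseudogene share of counts (2.46 ± 0.757% in High-fertile, 2.85 ± 0.288% in Sub-fertile libraries).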

Additional observations from a re-analysis of the deposited data

Results flagged for a closer look

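Within a class of 5, a gene is listed here where its highest or lowest heifer was separated from the nearest of the others by more of the range than Dixon's 95% critical value of 0.71 allows. Of 220 such groups (110 named genes in each class) and the pseudogene share, 28 met this. Chance alone gives about 1 in 20 for genes taken without regard to their values, which does not apply to the 28, since many of these genes were named with their values known, some for a wide spread, and genes that vary together are counted singly.

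High-fertile replicate 1 accounted for 9. It was highest for POU2AF1 (2.77 CPM), CD79A (7.07 CPM), CD79B (7.52 CPM), MS4A1 (20.9 CPM), SPIB (9.74 CPM), CORO1A (22.2 CPM), CCR7 (2.15 CPM) and RPLP1 (1244 CPM), and lowest for the pseudogene and ribosomal RNA share of counts (1.11%). High-fertile replicate 5 was highest for C1QB (42.8 CPM), VSIG4 (4.25 CPM) and COL18A1 (1197 CPM) and lowest for FADS1 (44.6 CPM). High-fertile replicate 4 was highest for VPREB1 (4.70 CPM), and High-fertile replicate 3 for NR1D1 (70.7 CPM) and LOC101904517 (0.679 CPM).

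Among Sub-fertile heifers, replicate 3 was highest for FADS1 (124 CPM), TMPRSS4 (4.98 CPM), CCR7 (0.592 CPM) and PRSS2 (0.887 CPM). Replicate 4 was highest for IFITM1 (72.2 CPM), ISG15 (93.2 CPM), ENG (110 CPM) and ASAH2 (6.51 CPM) and lowest for SRD5A2 (0.0328 CPM). Replicate 1 was highest for LOC100300806 (1.67 CPM) and COL3A1 (12611 CPM) and lowest for TNFAIP8L2 (0.783 CPM).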

How the results depend on the processing

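The count of 0 genes past adjusted p 0.05 held under other scalings, filters, a threshold of 0.10, limma-voom, 10 libraries, the set as a covariate and set A alone. DESeq2 gave 18, the edgeR likelihood ratio test 13 and limma-voom with sample quality weights 7162, and without set C (an alternative chosen after seeing the data) edgeR gave 3. At an unadjusted p under 0.05, higher and lower counts of 1313 and 1425 became 2132 and 2403 with 10 libraries, 4168 and 5018 with quality weights, 263 and 238 with the set as a covariate, and 592 and 936 in set A. Upper quartile scaling shifted the median of all genes to 0.06 and the split to 1829 higher and 1109 lower. Genes without overlap numbered 2018 higher and 2248 lower in set A, where 4 and 2 heifers are compared. With 1 library left out the counts ran from 0 to 3 past adjusted p 0.05, 591 to 2161 higher and 529 to 2517 lower at an unadjusted p under 0.05, and 482 to 1340 higher and 576 to 1634 lower without overlap. The lowest unadjusted counts came without Sub-fertile replicate 5 and the highest without Sub-fertile replicate 4. The causes of these changes were not tested. Leaving libraries out also lowers the number of heifers compared.

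Of 110 named genes 101 kept their direction under every alternative. With the set as a covariate the direction turned for PGR (0.50), ESR1 (0.39), DCN (-0.18), SYT4 (-0.38), CHRDL2 (0.12), IFITM1 (0.062) and CDX2 (-0.23). Within set A it turned for ESR1 (0.22), PTGES2 (0.011), DCN (-0.51), SYT4 (-0.65), IFITM1 (0.15) and ISG15 (0.74). In limma-voom it turned for SYT4 (-1.24) and IFITM1 (1.03, or 0.044 with quality weights), and IFITM1 ran from -0.82 to 0.051 with 1 library left out. Medians of 24 of 44 lists moved beyond the spread between heifers in at least 1 alternative. No paired analysis was made, because the classes hold different heifers. The labels give the heifers no replicate numbers, and those used here follow the order of the samples in each class. Genes under about 1 CPM rest on few reads, and their folds depend on the prior count.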
